A study of Rattus norvegicus with 12 samples.

Results

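The genes described here are 10 genes of the integrated stress response that centres on the transcription factor ATF4: Atf4, Atf5, Ddit3, Ddit4, Trib3, Asns, Chac1, Psat1, Phgdh and Sesn2. They were taken by name, as the entries of the deposited gene tables that carry these symbols, and all 10 were found among 18469 genes. RNA of neonatal rat ventricular myocytes (NRVMs), heart muscle cells of newborn Sprague-Dawley rats in short-term culture, was sequenced in 12 libraries, 3 biological replicates in each of 4 groups. The siNeg group received the negative control siRNA and no further agent. The siNeg.PE group received the same siRNA and, 12 h later, phenylephrine (PE), an α1-adrenergic agonist that makes cardiomyocytes grow, for 36 h. The siSlc25a26 group received an siRNA against Slc25a26, the mitochondrial carrier of S-adenosylmethionine, and no further agent. The siSlc25a26.PE group was given that siRNA and then PE at the same times. Cells of every group were thus transfected with an siRNA, and all were kept in DMEM with insulin, transferrin, selenium, penicillin and streptomycin. The knockdown was transient, and the number of siRNA sequences, and whether replicate cultures came from separate cell preparations, were not given in the sources used here. P-values therefore measure the spread between these cultures only.

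In the integrated stress response, kinases that sense stress phosphorylate the translation initiation factor eIF2α. General translation then falls, while the mRNA of Atf4 is translated more, and ATF4 protein activates genes of amino acid synthesis and uptake, further transcription factors and brakes on growth signalling. The response is known in heart muscle as a reaction to mitochondrial and endoplasmic reticulum stress, and because Atf4 is controlled in large part at translation, its mRNA level is not a measure of ATF4 protein. Neither protein nor eIF2α phosphorylation was analysed here.

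ATF4 binds the C/EBP-ATF response element together with a C/EBP partner. Its core, TGATGNAA, was searched on both strands (TTNCATCA on the other strand) in the promoter windows of RefSeq for the rat assembly GRCr8, which reach from 250 bases before to 50 bases after each gene's start. All 10 genes had a window. The core was found in the windows of 2 of the 10 genes, Chac1 and Trib3, and in 3.98% of 33469 windows in all. The cAMP response element TGACGTCA, which reads the same on both strands, was found in 0 of the 10 windows and in 1.83% of all windows. A match describes letters and not binding, and the other 8 genes may carry the element outside this window. The 250 bases before the start of both genes are printed because they hold the element of the factor the genes are named for. They read 5′ to 3′ on the gene's own strand, and capitals mark the match. In Chac1 (chr3:126795881-126796130, plus strand) it lies at bases -167 to -160 from the start, and in Trib3 (chr3:161275534-161275783, minus strand) at bases -21 to -14.
Chac1: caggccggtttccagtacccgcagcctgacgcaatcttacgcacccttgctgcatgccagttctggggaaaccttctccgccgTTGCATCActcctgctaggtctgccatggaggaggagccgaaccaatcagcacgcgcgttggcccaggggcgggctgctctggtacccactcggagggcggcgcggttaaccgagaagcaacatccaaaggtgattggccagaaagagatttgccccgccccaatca
Trib3: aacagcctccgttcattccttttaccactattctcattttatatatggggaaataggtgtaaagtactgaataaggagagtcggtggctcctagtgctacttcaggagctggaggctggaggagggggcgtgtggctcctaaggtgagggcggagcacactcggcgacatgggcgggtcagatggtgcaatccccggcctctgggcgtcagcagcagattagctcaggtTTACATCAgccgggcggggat

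Total counts ranged from 24770972 to 28709049 per library, and levels are given as CPM, that is counts divided by library size (TMM-normalised over the 12 libraries) and put on the usual per-million scale. The targeted gene Slc25a26 stood at 33.2, 31.6 and 29.3 CPM in siNeg, 15.8, 14.9 and 14.7 CPM in siSlc25a26, 113, 106 and 86.2 CPM in siNeg.PE, and 102, 106 and 98.8 CPM in siSlc25a26.PE. It was thus lower in siSlc25a26 than in siNeg (log2 fold change -1.08, SE 0.0798, adjusted p = 1.08e-05, edgeR), whereas the difference under PE was -0.01 (SE 0.101, adjusted p = 0.969). The level of the targeted gene therefore goes against the label of the PE-treated siSlc25a26 libraries, which are called the libraries labelled siSlc25a26.PE below. The summed level of 10 interferon-response genes set both siSlc25a26 groups apart, at 7380 to 8050 CPM in siSlc25a26 and 4400 to 4870 CPM in its PE-treated counterpart, against 186 to 214 CPM in siNeg and 133 to 147 CPM in siNeg.PE. The myocyte label was borne by 8 cardiomyocyte markers, which summed to 18200 to 25000 CPM and of which none was at 0. However, the summed level of 8 fibroblast markers (Col1a1 and others) was as high in siNeg, at 21400 to 23600 CPM, and was lower in siNeg.PE (11600 to 12100), siSlc25a26 (12500 to 14000) and the libraries labelled siSlc25a26.PE (8700 to 9470). Its largest parts in siNeg were the collagen genes Col1a1 and Col3a1, at means of 13320 and 5843 CPM. The sum of 5 mural cell markers went from 3210 to 3450 CPM in siNeg down to 1460 to 1880 CPM in the other groups. The part of these cell types and of the interferon-response genes in the results was not tested, and in bulk RNA fewer cells of a type and less RNA per cell cannot be told apart.

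Per length, Atf4 and Atf5 were the most abundant of the 10 genes in every group. In siNeg the deposited FPKM value, which scales fragments by gene length and library size, was 312 ± 5.50 for Atf4 and 288 ± 7.53 for Atf5 (SD, n = 3). Phgdh followed at 95.9 FPKM, Asns at 66.1, Ddit3 at 60.1, Ddit4 at 57.6, Psat1 at 41.8, Sesn2 at 41.3 and Trib3 at 31.2, and Chac1 was lowest at 23.1. In siSlc25a26 Ddit3 came next after Atf4 and Atf5, at 104 ± 0.794 FPKM, and likewise in the libraries labelled siSlc25a26.PE, at 58.9 ± 4.46. Every gene was well covered, since the smallest count of any of them in any library was 468, for Chac1. The counts of Atf4 were not whole numbers in 12 of 12 libraries, so part of its reads was assigned by estimation and its level is uncertain to that extent. Sesn2 had such a value in 1 library, and the other 8 genes in 0.

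**Figure D1:**
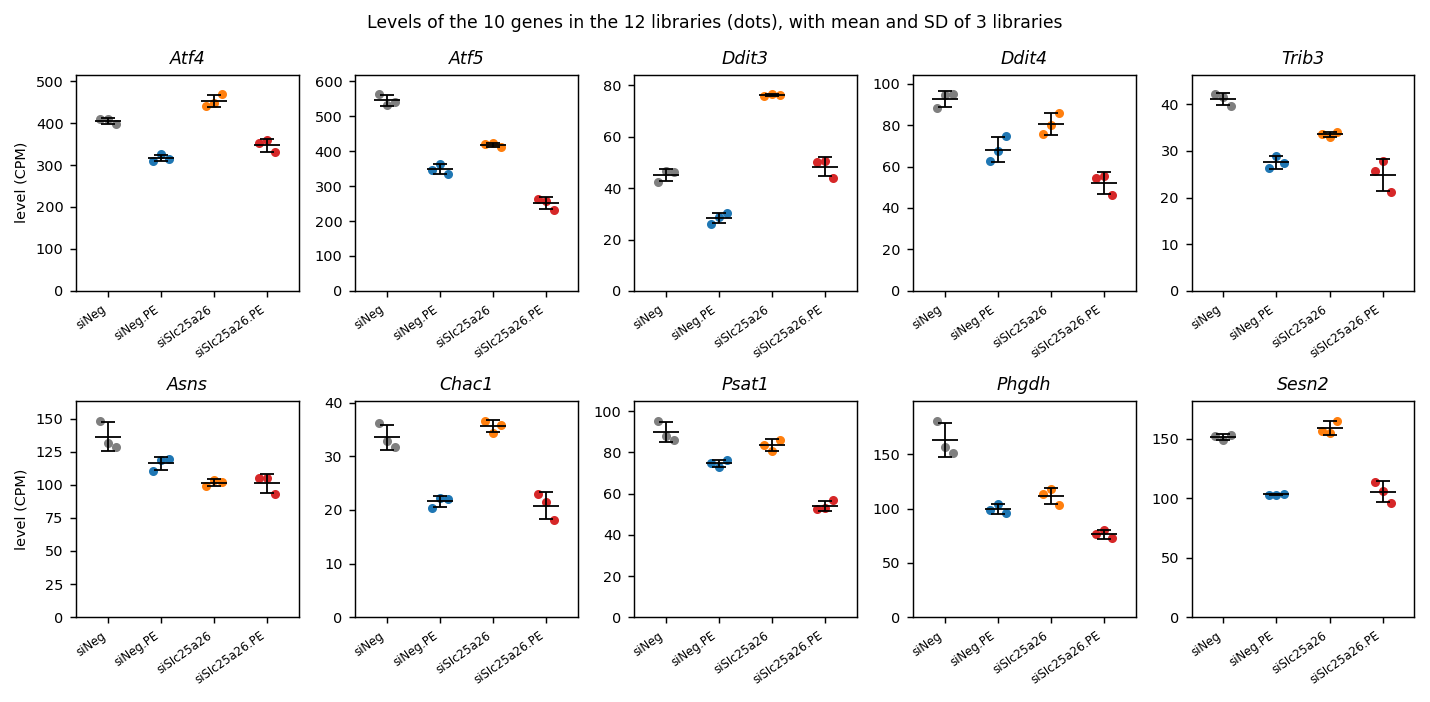
Levels (CPM, linear axis from 0) of the 10 genes in the 12 libraries, where dots are libraries, the bar is the mean of 3 and the whiskers are the SD. All 10 genes sit lower in siNeg.PE than in siNeg, and Ddit3 is highest in siSlc25a26, at 75.9 to 76.6 CPM.

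To ask how the genes responded to hypertrophic stimulation, siNeg.PE was compared with siNeg. The 10 genes were lower with PE, by 0.24 to 0.72 on the log2 scale. At an adjusted p under 0.05 at any fold, 10 of 10 genes were lower, where 24.3% of 13719 genes tested were lower (edgeR's quasi-likelihood test). In 10 of 10 genes all 3 siNeg.PE libraries lay below all 3 siNeg libraries, as in 29.1% of all genes. A gene was called where the fold change was also over 1.5. On that rule 5 of 10 genes were called lower (Atf5, Ddit3, Trib3, Chac1 and Phgdh), against 8.24% of all genes, and 0 were called higher, against 12.4%. No gene was higher at an unadjusted p under 0.05, and DESeq2 and limma-voom also called 0 higher. The median log2 fold change of the 10 genes was -0.58, and that of all genes tested was 0.00. The summed fibroblast and mural markers were lower in the same libraries, as given above, with 4 of 8 and 4 of 5 of them called lower, although the mural marker Rgs5 was called higher. The fibroblast markers Pdgfra and Dcn were also higher, by 0.37 and 0.27 (adjusted p = 0.0067 and 0.0407, edgeR), so the fibroblast list did not move one way. Of 5 macrophage markers, which summed to only 24.6 to 31.6 CPM in siNeg, 3 were called lower and 0 higher. The part of these markers in the decrease was not tested.

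Among the transcription factors, Atf4 changed least. It stood at 409, 409.5 and 398 CPM in siNeg and at 309.9, 326 and 315 CPM in siNeg.PE. The groups did not overlap, and the log2 fold change of -0.37 (SE 0.0486, adjusted p = 0.000618) lay inside the 1.5-fold line. Atf5, a related factor that is likewise translated more when eIF2α is phosphorylated, stood at 563, 532 and 540 CPM in siNeg and at 347, 363 and 335 CPM in siNeg.PE. Every PE library was below every siNeg library by well over the spread within a group (log2 fold change -0.66, SE 0.0523, adjusted p = 5.51e-05). Ddit3 encodes CHOP, a factor linked to cell death under prolonged stress. It stood at 42.3, 46.5 and 46.2 CPM in siNeg and at 26.2, 28.8 and 30.3 CPM in siNeg.PE, with no overlap and a log2 fold change of -0.67 (SE 0.0784, adjusted p = 0.00033).

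Among the enzymes of amino acid and glutathione metabolism, Phgdh showed the largest decrease of the 10 genes. PHGDH carries out the first step of serine synthesis from a glycolytic intermediate, and its mRNA was at 181, 157 and 152 CPM in siNeg and at 99.3, 104.5 and 95.8 CPM in siNeg.PE. Its groups did not overlap, although siNeg replicate 1 stood above the other siNeg libraries (log2 fold change -0.72, SE 0.0774, adjusted p = 0.000227). Psat1, the next enzyme of that pathway, moved less, from 95.5, 88.0 and 86.3 CPM to 75.1, 73.1 and 76.5 CPM (log2 fold change -0.28, SE 0.0617, adjusted p = 0.00689). Asns, asparagine synthetase, had the smallest change of all, from 149, 132 and 128 CPM to 110.2, 118.5 and 119.5 CPM. The Asns groups did not overlap, and the log2 fold change was -0.24 (SE 0.0728, adjusted p = 0.0241). Chac1, which degrades glutathione, fell from 31.7 to 36.1 CPM in siNeg to 20.5 to 22.3 CPM in siNeg.PE (log2 fold change -0.65, SE 0.0803, adjusted p = 0.000459).

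The 3 regulators of growth signalling were also lower. Trib3, a pseudokinase that binds AKT and ATF4, stood at 39.7 to 42.2 CPM in siNeg and 26.3 to 29.0 CPM in siNeg.PE. Its log2 fold change of -0.59 (SE 0.0671, adjusted p = 0.0003) was close to the 1.5-fold line, and 6 of 15 alternative settings placed it inside. Sesn2 and Ddit4 encode inhibitors of mTORC1, the kinase complex that drives protein synthesis. Sesn2 was at 149 to 153 CPM in siNeg and 103 to 104 CPM in siNeg.PE (log2 fold change -0.57, SE 0.0471, adjusted p = 6.74e-05), just inside the line. Ddit4 stood at 88.2 to 94.9 CPM in siNeg and 62.6 to 74.6 CPM in siNeg.PE (log2 fold change -0.45, SE 0.078, adjusted p = 0.00218). None of these 3 genes had overlapping groups. Without siNeg replicate 1, the count of genes called lower by PE was 3 (Atf5, Ddit3 and Phgdh) in place of 5. Over all genes it was 969 of 13853 in place of 1130 of 13719.

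**Figure D2:**
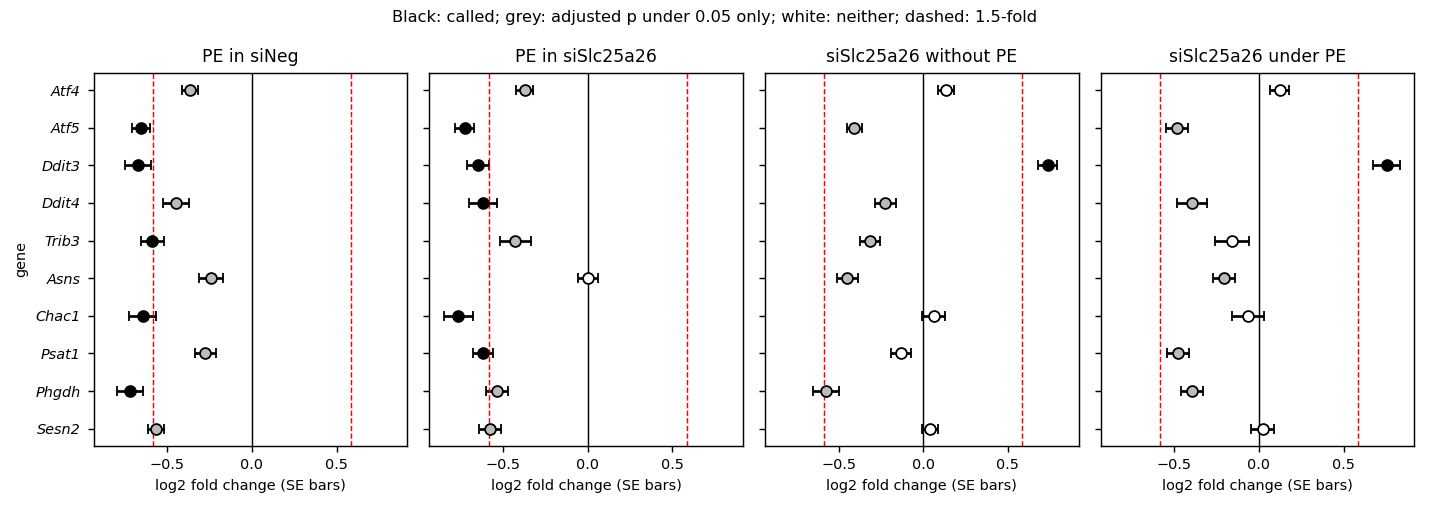
Log2 fold changes (x axis) of the 10 genes (y axis) in 4 comparisons, with SE as bars, where black dots are called genes, grey dots pass the adjusted p only, white dots pass neither and dashed red lines mark 1.5-fold. The points of the left pair of panels lie left of 0 except for Asns in siSlc25a26 cells, and Ddit3 alone lies beyond the right dashed line, in both panels that compare siSlc25a26-labelled with siNeg libraries.

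The same contrast was then made within the siSlc25a26 groups, with the libraries labelled siSlc25a26.PE against siSlc25a26. Here too the genes were lower with PE, 9 of 10 at an adjusted p under 0.05, where 26% of 13776 genes were lower. In 9 of 10 genes the groups did not overlap, with the PE libraries lower, as in 31.5% of all genes. Called lower were 5 of 10 genes (Atf5, Ddit3, Ddit4, Chac1 and Psat1), against 10.4% of all genes, and called higher were 0, against 10.1%. No gene was higher at an unadjusted p under 0.05 by edgeR, and DESeq2 and limma-voom called 0 higher. The median log2 fold change was -0.60 and that of all genes was 0.00.

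The decrease was -0.73 for Atf5 (SE 0.0558, adjusted p = 9.8e-06), from 419, 423 and 412 CPM to 264, 258 and 231 CPM. The groups were far apart against their spread. Chac1 had the largest decrease, from 34.4 to 36.7 CPM to 18.1 to 22.9 CPM (log2 fold change -0.76, SE 0.0874, adjusted p = 0.00011). Atf4 was at 441, 447 and 469 CPM in siSlc25a26 and at 352, 359 and 330.4 CPM with PE, which gives a log2 fold change of -0.37 (SE 0.0501, adjusted p = 0.000289). The value in siNeg cells was -0.37 as well. Phgdh, Sesn2 and Trib3 were lower at an adjusted p of 0.000143, 9.7e-05 and 0.00442, by 0.54, 0.58 and 0.43 on the log2 scale, and stood inside the 1.5-fold line. Of these, Phgdh and Sesn2 were within 0.1 of the line, and where limma was run on FPKM values, which moved the median of all genes to -0.125 or -0.171 depending on the pseudocount, both passed it. Over the 15 alternatives they were past the line in 3 and 7 cases.

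Within the siSlc25a26 groups Asns did not follow the other genes. It stood at 98.9, 103.9 and 101.9 CPM in siSlc25a26 and at 105.2, 105.3 and 92.9 CPM in libraries labelled siSlc25a26.PE. The ranges overlapped, and the log2 fold change was 0.00 (95% interval -0.13 to 0.136, adjusted p = 0.969). By limma on the FPKM scale with a pseudocount of 1 it was -0.18 (adjusted p = 0.0427), while all genes had a median of -0.125. Its sign changed in 7 of 15 alternatives, not only on the FPKM scales, so no direction is read from it.

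Whether the PE contrast differed between the siNeg and siSlc25a26 groups was tested as an interaction over all 12 libraries. By this test 0 of 10 genes were called in either direction, against 2.16% of 14097 genes called higher and 3.34% called lower. At an unadjusted p under 0.05 there were 2 of 10 genes, Psat1 and Asns, against 26.3% of all genes. DESeq2 and limma-voom also called 0. Psat1 passed the adjusted p at a fold under 1.5, the only gene of 10 to do so, and 5.73% of all genes were lower by that rule and 11.2% passed it in either direction. Its decrease with PE was larger within the siSlc25a26 groups, with a difference of -0.36 on the log2 scale (SE 0.0783, adjusted p = 0.0109), and the adjusted p ranged from 0.00426 to 0.0441 over 20 alternatives. The values behind it were 83.9, 80.7 and 86.3 CPM in siSlc25a26 and 52.4, 53.1 and 56.7 CPM in libraries labelled siSlc25a26.PE. The latter lay below every library of the other groups. For Asns the difference was 0.22 (SE 0.0948, adjusted p = 0.154), and for Ddit3 it was 0.00 (95% interval -0.21 to 0.217, adjusted p = 0.989). For Atf4 the interval was -0.172 to 0.118 (adjusted p = 0.836), so differences of the size seen for Psat1 lay outside it.

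The effect of siSlc25a26 itself was examined without PE, against siNeg. Ddit3 was the only gene of 10 called, and it was higher. It stood at 75.9, 76.6 and 76.2 CPM in siSlc25a26, all above the 42.3 to 46.5 CPM of siNeg, a 1.66-fold increase (log2 fold change 0.74, SE 0.055, adjusted p = 1.18e-05). Called higher were 8.92% of 13829 genes and called lower 7.2%, against 1 and 0 of the 10 genes. At an adjusted p under 0.05 at any fold 1 of 10 genes was higher, as were 23.3% of all genes, and 5 of 10 were lower, as were 21.7%. The same 5 genes were lower at an unadjusted p under 0.05. By DESeq2 Phgdh was also called lower, and limma-voom called 0 lower. The median of the 10 genes was -0.18, and that of all genes was 0.01. The summed fibroblast markers were lower in the same libraries, with 5 of 8 called lower and Tcf21 higher by 0.40 (adjusted p = 0.0156). Of 5 mural markers 3 were called lower and 0 higher, and of the 5 macrophage markers 2 were called lower and 0 higher. Of the 10 interferon-response genes 9 were tested and 9 called higher, and Ifit1 was near 0, at means of 0.11 CPM in siNeg and 0.19 CPM in siSlc25a26. The part of these lists in the values was not tested.

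The 5 genes that were lower were Phgdh, Asns, Atf5, Trib3 and Ddit4, and none of them reached 1.5-fold. Phgdh was close to the line, at 113, 118 and 103.3 CPM against 152 to 181 CPM in siNeg (log2 fold change -0.58, SE 0.0782, adjusted p = 0.000456), and it was past the line in 6 of 15 alternatives. Asns was lower by 0.45 (adjusted p = 0.00057), Atf5 by 0.41 (adjusted p = 0.000148), Trib3 by 0.32 (adjusted p = 0.00245) and Ddit4 by 0.23 (adjusted p = 0.0159). The siSlc25a26 libraries of each lay below all siNeg libraries, as in 25.3% of 13829 genes tested. Atf4, Ddit3 and Sesn2 had all siSlc25a26 libraries above all siNeg libraries, as did 31.6% of all genes. The log2 fold change of Atf4, 0.13 (SE 0.0485), missed the threshold at an adjusted p of 0.0506. That adjusted p ranged from 0.016 to 0.169 over 15 alternatives and so passed in some of them. Chac1, Sesn2 and Psat1 had log2 fold changes of 0.06, 0.04 and -0.13 (adjusted p = 0.518, 0.508 and 0.0952), with 95% intervals of -0.1 to 0.221, -0.0668 to 0.15 and -0.261 to 0.000381. Thus Ddit3 and Phgdh, which both fell with PE, moved in opposite directions with the knockdown.

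Under PE the libraries labelled siSlc25a26.PE were compared with siNeg.PE. Each PE comparison shares a group with each siSlc25a26 comparison, so the values below are not independent of those above. Ddit3 was again the only gene called, at 50.2, 50.6 and 44.1 CPM against 26.2, 28.8 and 30.3 CPM, a 1.69-fold increase (log2 fold change 0.76, SE 0.0795, adjusted p = 0.000131). Of 13671 genes tested 7.71% were called higher and 8.1% lower. At an adjusted p under 0.05 at any fold 1 of 10 genes was higher and 5 of 10 were lower, and 20.1% of all genes passed in each direction. DESeq2 and limma-voom called 0 lower, as did edgeR, by which 5 were lower at an unadjusted p under 0.05. These 5 genes were Atf5 (lower by 0.48, adjusted p = 0.000581), Psat1 (by 0.48, adjusted p = 0.000587), Ddit4 (by 0.40, adjusted p = 0.0073), Phgdh (by 0.40, adjusted p = 0.00153) and Asns (by 0.21, adjusted p = 0.0327). Atf4 was at 0.12 (adjusted p = 0.117), Trib3 at -0.16 (adjusted p = 0.24), Chac1 at -0.06 (adjusted p = 0.633) and Sesn2 at 0.02 (adjusted p = 0.827). The Slc25a26 level itself did not separate these groups, as given above.

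Across the 4 groups the genes fell into different orders. Ddit3 was highest in siSlc25a26 (mean 76.2 CPM) and lowest in siNeg.PE (28.4 CPM), and its ranges overlapped between siNeg (44.99 CPM) and the libraries labelled siSlc25a26.PE (48.3 CPM). Atf4 had the order siSlc25a26, siNeg, libraries labelled siSlc25a26.PE and siNeg.PE, with mean levels of 452.5, 405, 347 and 317 CPM and no overlap between neighbours. Atf5 and Ddit4 were highest in siNeg, followed by siSlc25a26, siNeg.PE and the libraries labelled siSlc25a26.PE, also with no overlap between neighbours, from 545 down to 251 CPM for Atf5 and from 92.5 down to 52.1 CPM for Ddit4. Trib3, Phgdh and Psat1 had that order of means too, with overlap between the last 2 groups for Trib3, the middle 2 for Phgdh and the first 2 for Psat1. Chac1 and Sesn2 differed mainly between the groups without and with PE, at 35.6 and 33.6 CPM without PE and 21.6 and 20.8 CPM with PE for Chac1, and their PE groups overlapped. Asns was highest in siNeg, and its siSlc25a26 and siSlc25a26.PE libraries overlapped at means of 102 and 101 CPM.

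A similar grouping, without sharp borders, is seen in the correlation of log2 CPM between genes over the 12 libraries, which mostly reflects the 4 group means and is given as a description. Pearson's r was 0.983 between Chac1 and Sesn2, 0.973 between Atf5 and Phgdh and 0.95 between Atf5 and Trib3. Atf4 went with Sesn2 (r = 0.948), Chac1 (0.922) and Ddit3 (0.876) more than with Atf5 (0.599), Phgdh (0.51) or Asns (0.0262). Ddit3 had r of 0.162 with Atf5, 0.0671 with Phgdh and -0.395 with Asns. Over the 9 libraries without those labelled siSlc25a26.PE, a choice made after seeing the data, r was 0.98 between Chac1 and Sesn2, 0.955 between Atf4 and Ddit3 and -0.461 between Ddit3 and Asns. Of 14097 genes, those most like Ddit3 other than the 10 were Cybc1, Tgfbi, Slc37a3, Csf1 and Ncstn (r = 0.985 to 0.991 over 12 libraries), and those most like Atf4 were Rgmb, Ubtf, Osbpl7, Lix1l and Slc27a3 (r = 0.981 to 0.984). Csf1, a macrophage growth factor, went from 271 CPM in siNeg to 531 CPM in siSlc25a26 and 175 CPM in siNeg.PE.

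**Figure D3:**
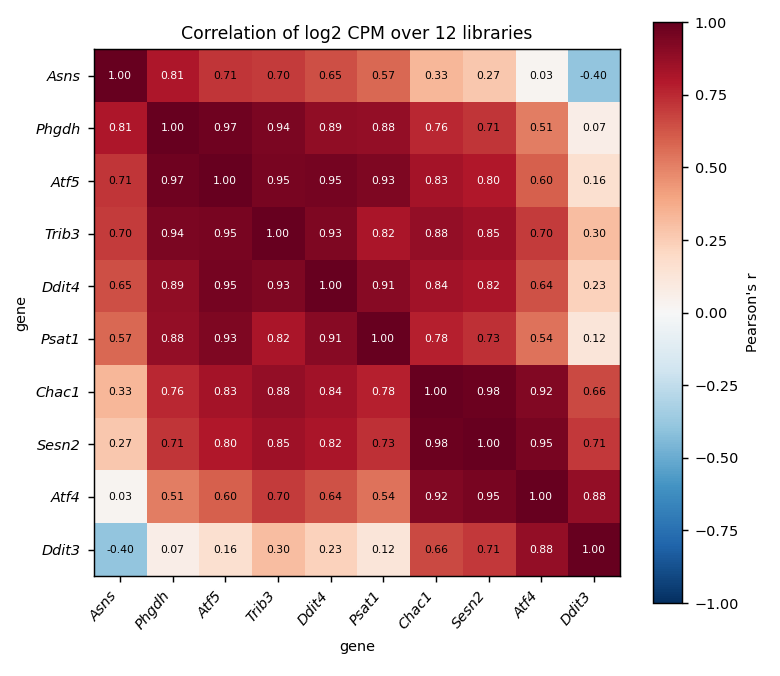
Pearson's r of log2 CPM over the 12 libraries for each pair of the 10 genes, from -1 (blue) to 1 (red). Atf5, Phgdh, Trib3, Ddit4 and Psat1 have high r with one another, as do Chac1, Sesn2 and Atf4. These sets are not separate, since Chac1 and Sesn2 also have r of 0.876 and 0.85 with Trib3. Ddit3 has its lowest r with Asns, at -0.395.

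The genes upstream of ATF4 were read from a list of 8 that holds the 4 eIF2α kinases, the eIF2α gene Eif2s1, the phosphatase subunits Ppp1r15a and Ppp1r15b, and the mitochondrial protease gene Oma1. Eif2ak2, which encodes the kinase PKR that senses double-stranded RNA and is itself an interferon-induced gene, stood at 8.85, 12.2 and 12.4 CPM in siNeg and at 147, 138 and 135 CPM in siSlc25a26. That is a 12.3-fold increase (log2 fold change 3.62, SE 0.113, adjusted p = 2.32e-08). With PE it was 6.48-fold higher, going from 15.7, 23.2 and 26.2 CPM in siNeg.PE to 115, 130.4 and 178 CPM in its siSlc25a26.PE counterpart (log2 fold change 2.70, SE 0.208, adjusted p = 1.95e-05). It was the only gene of the 8 called in both siSlc25a26 comparisons, and the summed interferon-response genes were also higher in both. With PE the 2 did not move together. In siNeg cells Eif2ak2 rose by 0.95 (SE 0.205, adjusted p = 0.00601), while the sum went from 186 to 214 CPM down to 133 to 147 CPM. Within the siSlc25a26 groups Eif2ak2 had a log2 fold change of 0.03 (adjusted p = 0.893), while the sum went from 7380 to 8050 CPM down to 4400 to 4870 CPM. With PE in siNeg 0 of the other 7 genes were called, where 12.4% of all genes were called higher and 8.24% lower. Eif2s1 was higher with PE at a smaller fold, by 0.45 in siNeg (adjusted p = 0.00446, edgeR). Within the siSlc25a26 groups it was higher by 0.41 (adjusted p = 0.00343).

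None of the other 3 kinases was called, but some passed the adjusted p at a smaller fold. Eif2ak3, the endoplasmic reticulum kinase PERK, had log2 fold changes of -0.01 with PE in siNeg (adjusted p = 0.934), -0.22 in siSlc25a26 against siNeg (adjusted p = 0.0764) and -0.41 between the PE groups (adjusted p = 0.00482). Eif2ak1, the heme-regulated kinase HRI that relays mitochondrial stress, was higher by 0.28 in siSlc25a26 than in siNeg (adjusted p = 0.00141), had a log2 fold change of 0.11 between the PE groups (adjusted p = 0.248), and was lower by 0.31 with PE within the siSlc25a26 groups (adjusted p = 0.00214). Eif2ak4, the amino acid sensor GCN2, had 0.21 without PE and 0.26 under PE (adjusted p = 0.102 and 0.0694). Ppp1r15b was higher in both siSlc25a26 comparisons, by 0.53 and 0.50 (adjusted p = 0.000127 and 0.000696), and so was Ppp1r15a, the stress-induced subunit GADD34, by 0.33 and 0.47 (adjusted p = 0.000646 and 0.00116). These are mRNA levels of kinases and phosphatases, whose activity was not measured.

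**Figure D4:**
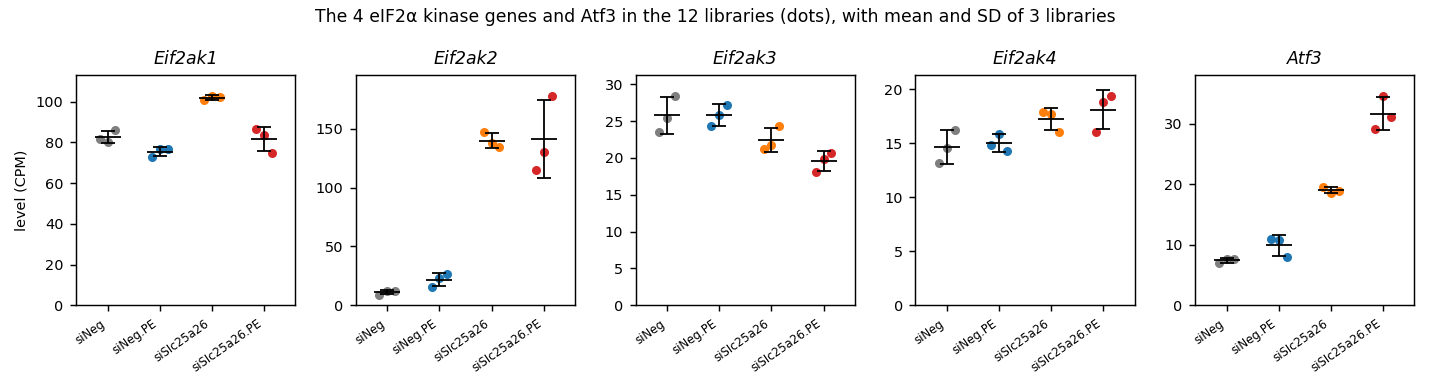
Levels (CPM, linear axes from 0, a scale for each gene) of the 4 eIF2α kinase genes and Atf3 in the 12 libraries, with mean and SD of 3. Eif2ak2 lies at 8.85 to 26.2 CPM in the siNeg groups and at 115 to 178 CPM in the siSlc25a26 groups, and Atf3 is highest in the libraries labelled siSlc25a26.PE.

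Of 5 partner factors, Atf3, which is induced by stress and can pair with other factors of its class, was the only one called in the siSlc25a26 comparisons. It rose from 6.997, 7.71 and 7.60 CPM in siNeg to 19.6, 18.6 and 18.9 CPM in siSlc25a26 (2.51-fold, adjusted p = 3.76e-06) and from 11.03, 10.8 and 7.91 CPM in siNeg.PE to 29.2, 34.7 and 31.2 CPM in libraries labelled siSlc25a26.PE (3.18-fold, adjusted p = 2.61e-05). Like Ddit3 it was higher in the siSlc25a26-labelled libraries in both comparisons, but with PE it moved the other way from Ddit3, by 0.40 in siNeg (adjusted p = 0.0402) and 0.75 in siSlc25a26 (adjusted p = 6.37e-05). Nupr1, a stress-induced cofactor, was called lower with PE in siNeg (-0.61, adjusted p = 0.000898), a call lost in 4 of 15 alternatives. The other 4 passed the adjusted p at a smaller fold, where 49.5% of all genes passed it at any fold. Besides Atf3, the C/EBP genes Cebpb and Cebpg were higher, by 0.28 and 0.29 (adjusted p = 0.00796 and 0.0163, edgeR). Jdp2 was lower by 0.50 (adjusted p = 0.00127), so this list did not move one way.

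Among 8 amino acid transporters, the cystine importer Slc7a11 was the only one called with PE in siNeg, and it was higher (log2 fold change 1.00, SE 0.277, adjusted p = 0.0176), the opposite direction to the 10 genes. Its libraries were low, at 5.58, 6.41 and 10.7 CPM in siNeg and 10.5, 18.2 and 17.1 CPM in siNeg.PE, and overlapped, and the call was lost in 5 of 15 alternatives. Another 5 of the 8 passed the adjusted p at a smaller fold, and all were lower, by 0.26 to 0.45. They were Slc3a2, Slc7a5, Slc6a9, Slc1a4 and Slc1a5, and 24.3% of all genes were lower at any fold. The arginine importer Slc7a1 was higher in the libraries labelled siSlc25a26.PE (128 to 135 CPM) than in siNeg.PE (61.0 to 69.3 CPM), by 0.99 (SE 0.0713, adjusted p = 1.23e-05). Within the siSlc25a26 groups Slc7a11 and Slc7a1 were called higher with PE, both by 0.71 (adjusted p = 0.00464 and 9.84e-06, edgeR). Each call was lost in 2 of 15 alternatives. The glycine transporter Slc6a9 was lower with PE within the siSlc25a26 groups, by 1.06 (adjusted p = 6.25e-06). Of all genes 10.1% were called higher there and 10.4% lower. Without PE the knockdown called 0 of the 8 transporters by edgeR, and 5 passed the adjusted p at a smaller fold, as did 45% of all genes at any fold.

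Of 12 further enzymes of amino acid and one-carbon metabolism 11 were tested. With PE in siNeg 0 were called, where 8.24% of all genes were called lower and 12.4% higher. At a smaller fold 5 passed the adjusted p, all lower, where 24.3% of all genes were lower at any fold. Among them were Pycr1 of proline synthesis (-0.54, adjusted p = 0.00301) and Aldh1l2 of mitochondrial folate metabolism (-0.50, adjusted p = 0.0011). Both were called lower with the knockdown without PE, Pycr1 by 0.75 (SE 0.112, adjusted p = 0.000759) and Aldh1l2 by 0.69 (SE 0.0793, adjusted p = 0.000166). Their levels were 20.2 to 23.8 CPM against 11.1 to 14.2 CPM for Pycr1 and 68.5 to 82.0 CPM against 43.8 to 50.1 CPM for Aldh1l2. Of 12 cytosolic aminoacyl-tRNA synthetases, a class that ATF4 is known to activate as a group, 0 were called in any of the 4 comparisons, and between 4 and 7 passed the adjusted p at smaller folds, in both directions within each comparison. Of all genes 49.5% and 52.4% passed it with PE in siNeg and in siSlc25a26, and 45% and 40.1% between the siRNA groups without and under PE. In these 4 comparisons between 7.2% and 12.4% of all genes were called in a given direction.

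Of 6 secreted and other ATF4 targets, the secreted glycoprotein gene Stc2 was the only one called with PE. It fell in both backgrounds, from 17.5 to 19.0 CPM to 7.66 to 10.5 CPM in siNeg (log2 fold change -0.98, SE 0.126, adjusted p = 0.000548) and by 1.12 in siSlc25a26 (adjusted p = 1.33e-05). Of 10 targets of ATF6 and XBP1, the other arms of the unfolded protein response, Herpud1 of endoplasmic reticulum-associated degradation was lower with PE in both backgrounds (-0.91, adjusted p = 2.63e-05, and -0.99, adjusted p = 8.52e-06). The chaperone Hsp90b1 was higher with PE in both (0.59, adjusted p = 0.00207, and 0.61, adjusted p = 0.00111), so this list did not move one way. Both values are close to the line, and the calls were lost in 5 and 3 of 15 alternatives. The chaperone Hspa5 (BiP) was higher by 0.54 in siSlc25a26 than in siNeg (adjusted p = 2.27e-05) and by 0.61 in the libraries labelled siSlc25a26.PE than in siNeg.PE (adjusted p = 0.000167). It was called in the latter, where 3 of 15 alternatives lost the call.

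Paralogs of the 10 genes were followed to see whether a change was shared within a family. Ddit4l, the paralog of the mTORC1 inhibitor Ddit4, fell more than Ddit4 itself, from 26.8, 26.9 and 25.4 CPM in siNeg to 8.96, 8.67 and 11.9 CPM in siNeg.PE (log2 fold change -1.44, SE 0.129, adjusted p = 0.000102). It was lowest in the libraries labelled siSlc25a26.PE, at 3.67, 3.10 and 2.55 CPM. Trib1 fell with PE like Trib3 (-0.96, adjusted p = 0.000101) but was higher with the knockdown without PE (0.66, adjusted p = 0.000163), where Trib3 was lower. Sesn1 was lower with PE in siNeg (-0.60, adjusted p = 0.00313), a call lost in 3 of 15 alternatives. Within the siSlc25a26 groups Sesn1 fell with PE by 1.11 (adjusted p = 1.6e-05, edgeR). It was lower in the libraries labelled siSlc25a26.PE than in siNeg.PE (-0.87, adjusted p = 0.000792). In that comparison 4 of 6 paralogs were called lower and 0 higher, where 8.1% and 7.71% of all genes were. The others were Ddit4l (-1.67), Sesn3 (-0.70) and Chac2 (-0.72, a call lost in 5 of 15 alternatives). Other paralogs went the opposite way with PE, below 1.5-fold. Trib2 was higher by 0.22 in siNeg (adjusted p = 0.0153) and by 0.41 in siSlc25a26 (adjusted p = 0.000577), and Sesn3 was higher by 0.49 in siNeg (adjusted p = 0.0102). Chac2 stood at 1.55 to 3.77 CPM, too low to set beside Chac1 with the same precision. The differences between paralogs were read from their separate fits and were not tested.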

How the data were processed

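The authors deposited expected counts (estimated reads per gene, about 21% of values not whole) and FPKM values per gene for the 12 libraries. The submitters' processing notes name HISAT, Bowtie2 and the rat build Rnor 6.0. The counting program, annotation and strandedness were not given in the sources used here. Expected counts were rounded, as the tests take whole counts. The paper linked to these data describes another knockdown and other times, so groups and times follow the sample labels.

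Differential expression was tested with edgeR 4.0.16 in R 4.3.3 (TMM, filterByExpr, quasi-likelihood F-test, Benjamini-Hochberg adjustment over all genes tested). Only the groups compared entered a fit, and all 12 libraries entered the interaction test of PE and siRNA. Calls needed a fold change over 1.5 and an adjusted p under 0.05. The SE of a log2 fold change was taken from the F statistic, and means are given with SD. Alternatives were DESeq2 1.42.0, limma-voom and limma 3.58.1 on log2(FPKM + 1) or log2(FPKM + 0.1), other size factors, no filter, at least 10 counts in every library, a replicate block, all libraries in a single fit and leaving out each library.

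All 10 genes and the targeted gene were named. From each pathway list the called genes were eligible, at most 4 a list by size of change, and every eIF2α kinase. Other list members given with values (Ppp1r15a, Ppp1r15b, Chac2 and those not called) were chosen after their values were seen. For likeness the 5 genes with the highest Pearson's r of log2 CPM (prior count 2) were taken. The genes and lists were chosen with earlier results of these data known. On simulated counts for PE in siNeg (13553 genes), 86 of 100 genes changed 2-fold and 83 of 100 changed 1.8-fold were called, with 6 unchanged genes. For the difference between PE effects (13798 genes), 66 of 96 changed 2-fold were called.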

Additional observations from a re-analysis of the deposited data

Results flagged for a closer look

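The PE contrast was compared between the siNeg and siSlc25a26 groups by edgeR's interaction test over the 12 libraries with adjustment over all genes, of which 11.2% passed. Given here are those of the 10 genes that passed the adjusted p, the targeted gene, and called genes of the pathway lists. Slc7a1, Slc1a4, Vldlr and Sesn1 also passed, at a fold under 1.5. Among the 10 genes only Psat1 passed, at -0.364 on the log2 scale (SE 0.0783, adjusted p = 0.0109), a difference under 1.5-fold. Slc25a26 itself rose more with PE within the siSlc25a26 groups, by 1.06 (SE 0.128, adjusted p = 0.000466), and it started from a lower level there and reached 102 CPM in both PE groups. The value for Eif2ak2 was -0.947 (SE 0.268, adjusted p = 0.0402), and its call was lost in 11 of 20 alternatives. For Slc6a9 it was -0.67 (SE 0.104, adjusted p = 0.002), for Pycr1 0.657 (SE 0.146, adjusted p = 0.0131) and for Ddit4l -0.922 (SE 0.22, adjusted p = 0.0192). These tests rest on the libraries labelled siSlc25a26.PE, in which the targeted gene was not lower than in siNeg.PE.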

How the results depend on the processing

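The smallest count of any of the 10 genes was 468. In no alternative did the numbers of genes called higher change. For genes called lower by PE in siNeg, leaving out 1 library gave 3 to 5, where 951 to 1138 of all genes were called lower. For PE in siSlc25a26 it gave 4 to 6, where 1346 to 1529 of all genes were. In the latter comparison limma on log2(FPKM + 0.1) gave 8, where 2193 of 13776 genes were called lower, against 1436 in the main fit. For the knockdown without PE, DESeq2 gave 1, DESeq2's size factors in edgeR 1, and leaving out 1 library 0 to 1, in each case Phgdh. The cause was not tested.

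The replicate number as a block left the counts at 5, 5, 0 and 0 lower and 0, 0, 1 and 1 higher in the 4 comparisons. Correlations of same-numbered libraries were 0.145, 0.00943 and 0.217 for PE in siNeg, -0.073, -0.00536 and -0.0391 for PE in siSlc25a26, 0.0356, -0.0913 and 0.0562 for siSlc25a26 without PE, and 0.209, 0.0252 and 0.169 for siSlc25a26 under PE, and 5, 0, 2 and 4 of 6 libraries correlated best with their own number in PE in siNeg, PE in siSlc25a26 and siSlc25a26 without and under PE. Not every pair was over 0.1 in any comparison, so the numbers were not taken to pair the libraries.

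Values near 0 changed sign. With PE in siSlc25a26, Asns was -0.181 and -0.185 by limma on log2(FPKM + 1) and (FPKM + 0.1), -0.00732 with the filter of 10 counts, -0.00654 with all libraries in a single fit and -0.0226 to 0.0566 without 1 library. Eif2ak2 was -0.169 and -0.174 on those FPKM scales, -0.000272 by limma-voom and -0.184 to 0.158 without 1 library, and Eif2ak4 was -0.0713 and -0.0905 on those scales. With PE in siNeg, Eif2ak4 was -0.0111 and -0.0135 on the FPKM scales and -0.0372 to 0.0999 without 1 library, and Eif2ak3 was 0.00124 with all libraries and -0.0618 to 0.0638 without 1. For the knockdown without PE, Chac1 was -0.00635 to 0.115 without 1 library. For siSlc25a26 under PE, Sesn2 was -0.0107 and -0.0111 on the FPKM scales, and Slc25a26 was 0.000104 by DESeq2, 0.0044 by limma-voom, 0.0032 with the block and 0.00454 with all libraries. Without 1 library Sesn2 was -0.0315 to 0.0937, Slc25a26 -0.135 to 0.0837 and Chac1 -0.134 to 0.0384. For the difference between PE effects, the FPKM scales gave -0.114 and -0.11 for Ddit3 and -0.0601 and -0.077 for Eif2ak4. Without 1 library this difference was -0.052 to 0.0644 for Ddit3, -0.0531 to 0.00779 for Atf4, -0.0943 to 0.0255 for Sesn2 and -0.0483 to 0.11 for Eif2ak4. The FPKM scales moved the median of all genes to -0.125 and -0.171 with PE in siSlc25a26 and to -0.109 and -0.143 for the difference.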
